A study of Mus musculus with 12 samples.

Results

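Senescence, a lasting arrest of the cell cycle, is usually read from a short list of canonical markers, and 8 of them were followed here: Trp53, Mdm2, Cdkn1a, Cdkn2a, Lmnb1, Hmgb1, Hmgb2 and Glb1. They were taken by symbol from a list of names, with no measured value in the rule, and make up 8 of the 32783 genes that at least 1 of the count tables lists. The microglia table of 30359 genes held all 8 and the astrocyte table of 27866 genes held 7, so Cdkn2a was not analysed here in astrocytes. Neither table listed a gene with 0 reads in every library, so an absent gene may have had 0 reads in all of them. The study raised the adenosine A2A receptor in hippocampal astrocytes of the mouse and asked how the transcripts of astrocytes and of microglia responded. All animals were C57Bl6/J mice that had received an AAV2/9 vector in CA1 of both hemispheres at 2 months of age and were studied 2 months after injection, at 4 months. The vector carried either the murine A2A receptor (gene Adora2a; AAV-A2A) or enhanced GFP (AAV-GFP), in both cases under GfaABC1D, a short promoter used to restrict expression to astrocytes, so that the controls carried the same vector and promoter. Astrocytes were collected from dissociated hippocampi with magnetic beads against ACSA-2, an astrocyte surface antigen, and microglia with beads against CD11b, an integrin of microglia and other myeloid cells, from the cells that the first beads had left. Each of the 4 groups (ACSA-2 or CD11b fraction, AAV-GFP or AAV-A2A) had 3 libraries. The labels do not say which CD11b library came from the same animals as which ACSA-2 library or whether a library held 1 mouse, so p-values measure the spread between these libraries, which may be in part technical. In sorted bulk samples fewer cells of a type and less RNA per cell cannot be told apart.

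The libraries held 33937067 to 49217553 assigned reads in the ACSA-2 fraction and 36098295 to 53206974 in the CD11b fraction. Astrocyte markers summed to 23756 to 34822 CPM, counts scaled to library size, in ACSA-2 libraries and to 258 to 618 CPM in CD11b libraries, and microglia markers to 462 to 866 and 12482 to 72684 CPM respectively. Adora2a was at 23.2 to 25.6 CPM in the ACSA-2 GFP libraries and 655 to 926 CPM in the A2A libraries (log2 fold change (FC) 5.02, SE 0.21, edgeR adjusted p = 1.55e-05). In the CD11b fraction Adora2a was at 3.76 to 8.29 CPM with AAV-GFP and 15.0 to 45.2 CPM with AAV-A2A (log2 FC 2.20, edgeR adjusted p = 0.280). The ranges did not overlap, and DESeq2 gave a log2 FC of 2.19 with an adjusted p of 0.0139. The CD11b libraries fell apart by transcripts of the choroid plexus, the epithelium that secretes cerebrospinal fluid. Its 8 markers summed to 33332 to 87042 CPM in libraries GFP-316, GFP-317 and A2A-325 (called choroid-rich), against 9.09 to 90.8 CPM in GFP-319, A2A-321 and A2A-322 (choroid-poor), and to 549 to 1063 CPM in ACSA-2 libraries. All 8 choroid markers were higher, and 8 of 10 microglia markers lower, in every choroid-rich library than in every choroid-poor one; the microglia sum was 12482 to 28907 CPM in the former and 56615 to 72684 CPM in the latter. Member results that rest on CD11b libraries are given without these 3 libraries as well where they move. Such fits hold 1 CD11b GFP library, GFP-319, which is assumed to vary like the other groups, so they describe that library more than the condition.

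The members stand for different arms of the arrest programme. Trp53 encodes p53, the transcription factor that answers DNA damage and other stress; Mdm2, itself a p53 target, encodes the ubiquitin ligase that removes p53, and Cdkn1a encodes p21, the cyclin-dependent kinase inhibitor through which p53 halts the cycle. Cdkn2a encodes both p16INK4a, an inhibitor of Cdk4 and Cdk6, and p19Arf, an inhibitor of Mdm2. Lamin B1 (Lmnb1) of the nuclear lamina and the chromatin proteins Hmgb1 and Hmgb2 are known to be lost from senescent nuclei, and Glb1 encodes the lysosomal β-galactosidase whose activity stains senescent cells. Astrocytes and microglia of the young adult brain divide little, and in such cells the markers are also part of ordinary stress and lysosomal programmes.

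Promoter sequences are shown for a set of members picked by hand, each with a chosen motif marked in its upstream 250 bases. RefSeq promoter windows of GRCm38.p6 existed for 7 of the 8 members, with 10 windows for these 7 and 32851 in all, and capitals mark the motif on either strand. The first of 2 Cdkn1a windows (chr17:29090729-29090978, plus strand) held a match to the p53 consensus, with at most 1 departure outside its core, starting 51 bases before the transcription start; 0.0578% of all windows (19 windows) held one, and the second Cdkn1a window did not. In the Mdm2 (chr10:117710759-117711008, minus strand), first Hmgb1 (chr5:149053058-149053307, minus strand) and Hmgb2 (chr8:57511593-57511842, plus strand) windows the capitals mark CCAAT or its reverse complement, the box read by NF-Y and common in genes of proliferating cells, with 1, 3 and 4 matches, against 33.8% of all windows with at least 1. The Trp53 window, not printed, also held 1 CCAAT, and the second Hmgb1 window held none. The Glb1 window (chr9:114400828-114401077, plus strand) held TCACGTG, part of the element read by the lysosomal regulator TFEB, as did 3.13% of all windows. The Mdm2 window lies upstream of the first start and does not cover the intronic promoter known to answer p53. A match describes letters only and is no evidence of binding here.
Cdkn1a: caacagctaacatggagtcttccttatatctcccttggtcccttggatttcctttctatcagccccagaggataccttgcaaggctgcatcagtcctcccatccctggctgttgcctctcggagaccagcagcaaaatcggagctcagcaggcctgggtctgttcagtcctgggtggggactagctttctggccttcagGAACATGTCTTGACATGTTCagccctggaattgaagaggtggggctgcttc
Mdm2: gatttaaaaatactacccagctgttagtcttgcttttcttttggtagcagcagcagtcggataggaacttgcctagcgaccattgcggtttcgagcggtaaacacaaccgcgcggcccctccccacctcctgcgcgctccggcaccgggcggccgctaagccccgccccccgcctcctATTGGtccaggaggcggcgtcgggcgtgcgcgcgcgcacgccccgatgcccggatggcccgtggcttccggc
Hmgb1: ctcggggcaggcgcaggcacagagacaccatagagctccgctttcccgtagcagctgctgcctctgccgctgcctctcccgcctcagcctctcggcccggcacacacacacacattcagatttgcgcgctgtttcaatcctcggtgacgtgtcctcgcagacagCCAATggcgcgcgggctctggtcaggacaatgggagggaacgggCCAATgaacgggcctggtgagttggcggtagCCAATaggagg
Hmgb2: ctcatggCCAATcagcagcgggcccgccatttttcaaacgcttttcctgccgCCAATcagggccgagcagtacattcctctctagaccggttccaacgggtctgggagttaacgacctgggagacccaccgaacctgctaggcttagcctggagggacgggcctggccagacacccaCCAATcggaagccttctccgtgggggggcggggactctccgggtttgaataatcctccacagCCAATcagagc
Glb1: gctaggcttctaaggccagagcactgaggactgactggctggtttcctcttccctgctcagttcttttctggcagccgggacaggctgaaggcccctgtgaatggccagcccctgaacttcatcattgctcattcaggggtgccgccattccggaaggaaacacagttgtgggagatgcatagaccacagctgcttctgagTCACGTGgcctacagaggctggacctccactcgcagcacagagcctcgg

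With levels taken per kilobase of exon, Cdkn1a was the most abundant member in ACSA-2 GFP libraries at 21.4 CPM per kb, followed by Glb1 at 13, Trp53 at 11.6 and Hmgb1 at 10.6 CPM per kb. Hmgb2 at 5.96, Mdm2 at 5.24 and Lmnb1 at 1.22 CPM per kb came last. In CD11b GFP libraries Glb1 led at 41.9 CPM per kb before Cdkn1a at 33.4, Mdm2 at 17.4 and Trp53 at 16.8, and Hmgb1 at 5.14, Hmgb2 at 2.95 and Lmnb1 at 2.27 CPM per kb were the lowest. In the choroid-poor GFP-319 alone, Trp53 at 31.2 CPM per kb came second after Glb1 at 50.5, before Cdkn1a at 22.8 and Mdm2 at 12.7 CPM per kb. The plot of CPM by library gives all these values.

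**Figure D1:**
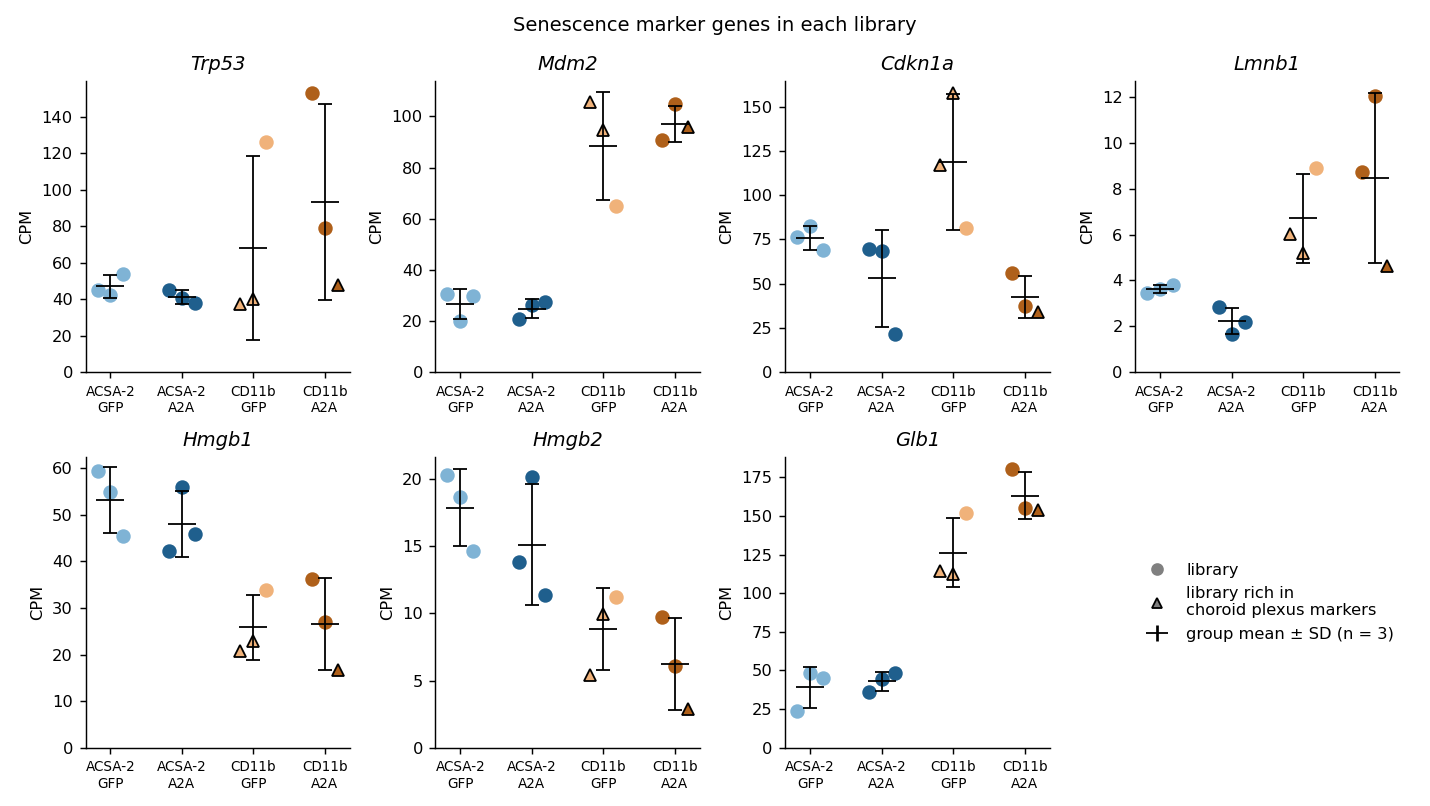
CPM (vertical axis, linear from 0) of the 7 tested members in each of the 12 libraries by fraction and vector, with 1 point per library, triangles for the choroid-rich CD11b libraries and black bars for the group mean ± SD (n = 3). Cdkn1a in the CD11b fraction lies between 33.9 and 55.7 CPM with AAV-A2A and between 81.1 and 158 CPM with AAV-GFP, while Trp53 spreads from 37.2 to 153 CPM across the same fraction.

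The first comparison asked whether the vector moved these markers in the astrocytes that carry it. None of the 7 tested members passed the threshold (edgeR quasi-likelihood test, adjusted p of 0.05 and absolute log2 FC of 0.32), by edgeR or by DESeq2, and 0 members reached an unadjusted p under 0.05. Across the fraction 553 of 16451 genes passed (3.36%), of which 524 were lower (3.19%) and 29 higher (0.176%) with AAV-A2A, and DESeq2 called 1071 (6.51%). An unadjusted p under 0.05 was reached by 2141 genes (13%). The estimates of the members lay between -0.67 (Lmnb1) and 0.16 (Glb1) on the log2 scale, around a median of 0.02 for all genes tested. In simulated counts of this fraction edgeR called 4 of 192 genes changed by a log2 FC of 1. It called 106 of 190 genes changed by 2, so smaller changes would mostly be missed.

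Of the p53 axis, Trp53 (ENSMUSG00000059552, chr11:69580359-69591873, plus strand) was at 44.8, 42.2 and 53.8 CPM in ACSA-2 libraries GFP-303, GFP-306 and GFP-307, against 45.1, 40.6 and 37.9 CPM in A2A-309, A2A-310 and A2A-313. Its groups overlapped (46.9 ± 6.08 against 41.2 ± 3.65 CPM, SD, n = 3), and the log2 FC of -0.16 had a 95% interval of -0.61 to 0.29 (edgeR adjusted p = 0.845). Mdm2 (ENSMUSG00000020184, chr10:117688875-117710758, minus strand), its negative regulator, stood at 30.4, 19.8 and 29.6 CPM against 20.7, 26.4 and 27.4 CPM. The ranges were nested, and the log2 FC was -0.07 (interval -0.65 to 0.52, edgeR adjusted p = 0.966).

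Cdkn1a (ENSMUSG00000023067, chr17:29090976-29100727, plus strand) was at 76.4, 82.3 and 68.9 CPM with AAV-GFP and 69.5, 68.3 and 21.5 CPM with AAV-A2A. A2A-309 and A2A-310 lay at the low edge of the controls and only A2A-313 lay far below, so the groups overlapped. The log2 FC of -0.49 (SE 0.37, interval -1.33 to 0.34, edgeR adjusted p = 0.689) became -0.13 without A2A-313. That library also had the lowest sum of the 6 ependymal markers, 375 CPM against 1003 to 1608 CPM in the other ACSA-2 libraries, with all 6 of them at their lowest there and none at 0. It also had the highest astrocyte sum (34822 CPM) and the lowest sums of microglia (462), border macrophage (59.5), erythrocyte (562), neuron (13), neuroblast (6.64) and endothelial and pericyte markers (704 CPM). The next lowest sums were near for microglia (491 CPM in GFP-306) and border macrophages (63.8 CPM in GFP-303). Not all single markers were lowest there: 3 of 10 microglia, 3 of 7 border macrophage and 4 of 5 erythrocyte markers were. For neurons it was 4 of 10, for neuroblasts 3 of 5, and for endothelial cells and pericytes 4 of 8. The part of these cells in the Cdkn1a value was not tested.

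Lmnb1 (ENSMUSG00000024590, chr18:56707813-56753424, plus strand) was the member with the largest estimate and the lowest level. It was at 3.47, 3.62 and 3.79 CPM in the GFP libraries and 2.83, 1.68 and 2.19 CPM in the A2A libraries, so every A2A library lay below every GFP library. The difference (log2 FC -0.67, interval -1.90 to 0.56) did not pass the test (edgeR adjusted p = 0.719). Lmnb1 was the 1 member of 7 whose groups did not overlap, against 19.4% of all genes tested in either direction and 11.5% in this one.

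The HMGB genes overlapped between vectors. Hmgb1 (ENSMUSG00000066551, chr5:149046702-149184489, minus strand) was at 59.3, 54.8 and 45.4 CPM with AAV-GFP and 42.2, 55.9 and 45.8 CPM with AAV-A2A (log2 FC -0.12, interval -0.58 to 0.35, edgeR adjusted p = 0.904). Hmgb2 (ENSMUSG00000054717, chr8:57511907-57515999, plus strand), which is better known as a marker of dividing progenitors, was at 20.3, 18.7 and 14.7 against 13.8, 20.1 and 11.4 CPM (log2 FC -0.22, interval -0.90 to 0.47, edgeR adjusted p = 0.872). Both are counted with some uncertainty: 22.7% of the 50-base words of Hmgb1 transcripts and 18.7% of those of Hmgb2 also occur in other genes, 129 of 132 and 8 of 9 of them pseudogenes, and such reads were not counted as unique. For the remaining members the share was at most 8.49% (Cdkn1a), and it was 0% for Cdkn2a and Lmnb1.

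Glb1 (ENSMUSG00000045594, chr9:114401076-114474898, plus strand) was at 24.1, 48.1 and 45.1 CPM in GFP libraries and 36.3, 44.2 and 48.2 CPM in A2A libraries. GFP-303 was the low one, and without it the log2 FC of 0.16 (interval -0.48 to 0.81, edgeR adjusted p = 0.906) turned to -0.11. Exons of Glb1 share 165 bases (5.49%) with Tmppe on the same strand, and exons of Cdkn1a 273 bases (7.68%) with AC167363.2 on the opposite strand, which a library preparation without strand marking cannot separate.

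The second comparison asked the same of microglia, the neighbours of the cells that carry the vector. Cdkn1a was 2.89-fold lower with AAV-A2A and the groups did not overlap, but 0 of the 7 tested members passed edgeR's adjusted threshold, as did 0 of all 16949 genes tested (0%). In simulated counts of this fraction edgeR called 0 of 184 genes changed by a log2 FC of 2. Its 0 calls here therefore cannot tell an unchanged member from one changed by that much. At an unadjusted p under 0.05 there were 2704 genes (16%), with Cdkn1a the 1 member among them, and DESeq2 called 798 genes (4.71%; 1.75% lower), again with Cdkn1a as the 1 member. In simulated counts DESeq2 called 63 of 184 genes changed by a log2 FC of 2 and 78 of 15970 unchanged genes. At a log2 FC of 1 it called 1 of 187 changed and 55 of 15971 unchanged genes. The simulation set 200 genes to change and held no choroid plexus split. It therefore gives no share of false calls among the 798 genes called here, and cannot tell whether the Cdkn1a call is 1 of them.

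Cdkn1a was at 117, 158 and 81.1 CPM in CD11b libraries GFP-316, GFP-317 and GFP-319 and at 55.7, 37.6 and 33.9 CPM in A2A-321, A2A-322 and A2A-325. Every A2A library was below every GFP library (119 ± 38.3 against 42.4 ± 11.7 CPM, SD, n = 3), as were 10.5% of all genes tested (22.4% in either direction). The log2 FC was -1.53 (SE 0.36, interval -2.39 to -0.67, unadjusted p = 0.00404, edgeR adjusted p = 0.280). DESeq2 gave -1.56 with an adjusted p of 0.0183, and over all 13 alternatives the log2 FC lay between -1.76 and -0.82, with adjusted p from 0.0183 to 1.00 and a call in 1 of them. The lowest size was that without the 3 choroid-rich libraries, which leaves 1 GFP library.

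Within the choroid-poor libraries Cdkn1a was at 81.1 CPM with AAV-GFP and at a mean of 46.7 CPM with AAV-A2A. In the choroid-rich ones it was at a mean of 137 CPM with AAV-GFP and 33.9 CPM with AAV-A2A. The A2A side was thus lower in both classes, as it was for 35.2% of all genes tested. Summed markers of some other cell types were lower with AAV-A2A as well, but not those of every type. The 5 erythrocyte markers summed to 929 to 6644 CPM in CD11b GFP libraries and 62.8 to 213 CPM in A2A libraries, none at 0, and DESeq2 called all 5 lower. The 10 neuron markers summed to 28.8 to 248 CPM against 6.71 to 16.3 CPM, with up to 3 of them at 0 in a library, and DESeq2 called 5 lower. Neither of these sums overlapped between vectors. Those of endothelial cells and pericytes (773 to 1681 against 406 to 926 CPM, 3 of 8 markers called lower by DESeq2) and of ependymal cells (162 to 514 against 33.4 to 169 CPM, 2 of 6) did, and edgeR called none of these markers. In the endothelial and pericyte list Pdgfrb (log2 FC 2.35), Rgs5 (0.37) and Pecam1 (0.06) lay above 0. Its median log2 FC was -0.10, against -0.05 for all genes. Medians of the border macrophage (0.65) and microglia markers (0.39) were above 0. The part of these cells in the Cdkn1a value was not tested.

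Upstream of p21 there was no such separation. Trp53 was at 37.2, 40.3 and 126 CPM with AAV-GFP and 153, 79.2 and 47.7 CPM with AAV-A2A, and its 3 low values belonged to the choroid-rich libraries. The log2 FC of 0.43 (interval -0.98 to 1.84, edgeR adjusted p = 0.741) was -0.14 without those libraries and -0.07 without A2A-321. Mdm2 was at 106, 94.5 and 64.8 CPM against 91.0, 105 and 95.7 CPM, with overlapping groups and a log2 FC of 0.10 (interval -0.61 to 0.82, edgeR adjusted p = 0.886) that was -0.10 without GFP-319 and 0.57 without the choroid-rich libraries. For Cdkn2a (ENSMUSG00000044303, chr4:89274471-89294653, minus strand), the p16INK4a and p19Arf gene, the CD11b libraries held 4, 0 and 8 reads with AAV-GFP and 6, 0 and 0 reads with AAV-A2A. It did not pass the filter on low counts and has no test. Zero reads allow a level of up to 0.0508 to 0.0887 CPM at these depths (3 counts), and its highest value was 0.209 CPM, so a difference between vectors was not detectable at this depth.

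Of the nuclear markers, Lmnb1 was at 6.01, 5.21 and 8.92 CPM with AAV-GFP and 8.75, 12.0 and 4.64 CPM with AAV-A2A (log2 FC 0.29, interval -0.81 to 1.40, edgeR adjusted p = 0.778), which was -0.02 without A2A-322 and 0.20 without the choroid-rich libraries. Hmgb1 was at 20.8, 22.8 and 33.8 against 36.3, 27 and 16.6 CPM, with a log2 FC near 0 (0.00566, interval -0.83 to 0.84, edgeR adjusted p = 0.996) whose sign depended on the setting. Trp53, Lmnb1 and Hmgb1 were each lower in all 3 choroid-rich libraries than in all 3 choroid-poor ones, 3 of 7 members against 17.5% of all genes tested, and the other 4 overlapped between these classes. Hmgb2 was at 5.41, 9.97 and 11.2 CPM with AAV-GFP and 9.71, 6.06 and 2.88 CPM with AAV-A2A, with overlapping groups (log2 FC -0.56, interval -1.84 to 0.72, edgeR adjusted p = 0.632).

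Glb1 was the other member whose CD11b groups did not overlap. It was at 114, 112 and 152 CPM with AAV-GFP and 180.5, 155 and 154 CPM with AAV-A2A, every A2A library being above every GFP library, as for 11.9% of all genes. The log2 FC of 0.35 (interval -0.30 to 0.99) did not pass the test (edgeR adjusted p = 0.550) and was 0.12 without the choroid-rich libraries. The plot of vector effects sets both fractions side by side, and the plot against marker sums shows how the members lay across choroid-rich and choroid-poor libraries.

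**Figure D2:**
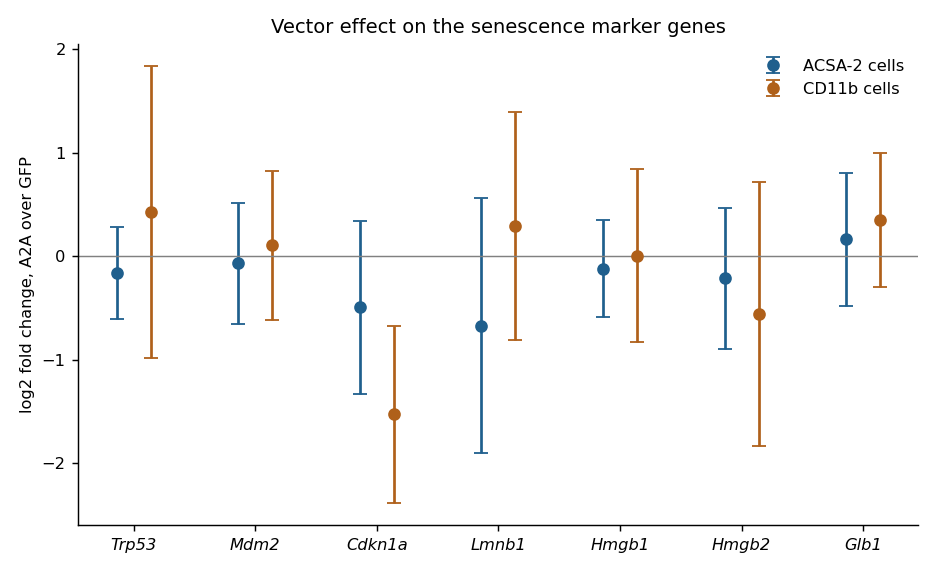
Log2 FC of AAV-A2A over AAV-GFP (vertical axis; points, with 95% intervals from edgeR) for each of the 7 tested members in the ACSA-2 and the CD11b fraction. The Cdkn1a interval in the CD11b fraction, -2.39 to -0.67, leaves out 0 and all the others drawn include it.

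**Figure D3:**
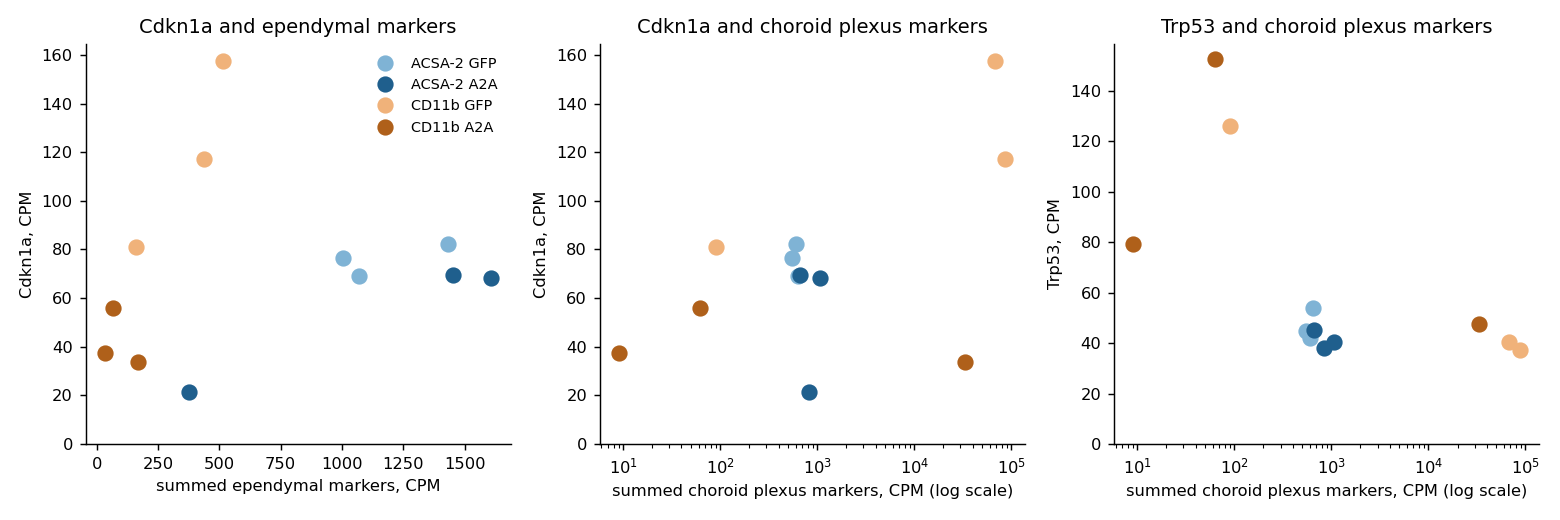
CPM per library (vertical axes, from 0) of Cdkn1a against the summed ependymal markers (linear axis, CPM) and of Cdkn1a and Trp53 against the summed choroid plexus markers (log axes, CPM), coloured by fraction and vector. Trp53 is low (37.2 to 47.7 CPM) in the 3 CD11b libraries with choroid sums of 33332 to 87042 CPM, and Cdkn1a is lowest (21.5 CPM) in the ACSA-2 library with an ependymal sum of 375 CPM.

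Whether the vector effect differed between the fractions was tested as an interaction over all 12 libraries. None of the 7 members passed, against 75 of 18602 genes (0.403%) by edgeR and 1521 (8.18%) by DESeq2, which also called no member, and 0 members had an unadjusted p under 0.05. In simulated counts this edgeR test called 1 of 190 genes whose vector effects differed by a log2 FC of 2. For Cdkn1a the CD11b effect minus the ACSA-2 effect was -0.97 on the log2 scale (interval -2.24 to 0.30, edgeR adjusted p = 0.385). Lmnb1 had the opposite sign, 1.04 (interval -0.42 to 2.49, edgeR adjusted p = 0.418). The other members lay between -0.27 (Hmgb2) and 0.64 (Trp53), each with an interval that spans 0. Without the choroid-rich libraries the Cdkn1a interaction was -0.28, that of Trp53 0.07 and that of Mdm2 0.70 (0.24 with all libraries), and those of Hmgb1 (0.06) and Glb1 (0.02) were near 0. The Cdkn1a difference in microglia was therefore not shown to differ from that in astrocytes.

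The largest differences of these markers lay between the cell fractions. Each fraction had its own count table, so a difference between fractions cannot be told apart from one between the tables. Among GFP libraries, Mdm2 and Glb1 were over 3-fold higher in CD11b than in ACSA-2 cells and Hmgb1 was lower, 3 of 7 members, against 4968 of 18602 genes (26.7%) by edgeR, 14.4% higher and 12.3% lower, and 35.1% by DESeq2. Mdm2 was at 26.6 ± 5.90 CPM in ACSA-2 and 88.3 ± 21.1 CPM in CD11b libraries (SD, n = 3; log2 FC 1.73, SE 0.26, edgeR adjusted p = 0.000832). Glb1 was at 39.1 ± 13.1 and 126 ± 22.3 CPM (log2 FC 1.69, SE 0.28, edgeR adjusted p = 0.00151). Without the choroid-rich libraries the log2 FC was 1.31 for Mdm2 and 1.98 for Glb1. Both kept their call in 19 of 19 alternatives, with adjusted p up to 0.0159 for Mdm2 and 0.0133 for Glb1.

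Hmgb1 was at 53.2 ± 7.08 and 25.8 ± 7.01 CPM (log2 FC -1.04, SE 0.31, edgeR adjusted p = 0.0304). This call was lost without GFP-303 (adjusted p = 0.0900) or GFP-306 (0.0770) of the ACSA-2 fraction, without the CD11b libraries GFP-316 (0.0955) or GFP-317 (0.0988), with log2 FCs of -1.02 to -0.91 in these 4 fits, and without the choroid-rich libraries (log2 FC -0.63, adjusted p = 0.241). The adjusted p ranged from 0.00383 to 0.241 over its alternatives. Its relative Hmgb2 (17.9 ± 2.89 against 8.86 ± 3.05 CPM) had a similar estimate, -1.01, that missed the threshold (interval -2.03 to 0.01, edgeR adjusted p = 0.128). The Hmgb2 estimate was -0.65 without the choroid-rich libraries.

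Lmnb1 was at 3.63 ± 0.160 and 6.71 ± 1.95 CPM (log2 FC 0.89, interval -0.14 to 1.92, edgeR adjusted p = 0.184), and the estimate was 1.32 without the choroid-rich libraries. Cdkn1a was at 75.9 ± 6.70 and 119 ± 38.3 CPM (log2 FC 0.65, interval -0.25 to 1.55, edgeR adjusted p = 0.266), and the estimate was 0.12 without the choroid-rich libraries. Trp53 was at 46.9 ± 6.08 and 67.9 ± 50.5 CPM, and its CD11b mean rested on GFP-319 at 126 CPM. The log2 FC of 0.53 (interval -0.54 to 1.60, edgeR adjusted p = 0.447) was -0.27 without that library and 1.45 (adjusted p = 0.0126) without the choroid-rich libraries, a call that rests on GFP-319 alone, over alternatives with adjusted p from 0.0126 to 0.660. Mdm2, Lmnb1 and Glb1 were higher and Hmgb1 and Hmgb2 lower in every CD11b than in every ACSA-2 GFP library, 5 of 7 members against 48.1% of all genes. With the difference averaged over both vectors, Lmnb1 (log2 FC 1.41, edgeR adjusted p = 0.00428) and Hmgb2 (-1.15, 0.0120) were called as well, 5 of 7 members against 54.1% of genes, and their adjusted p over all alternatives reached 0.423 and 0.418.

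**Figure D4:**
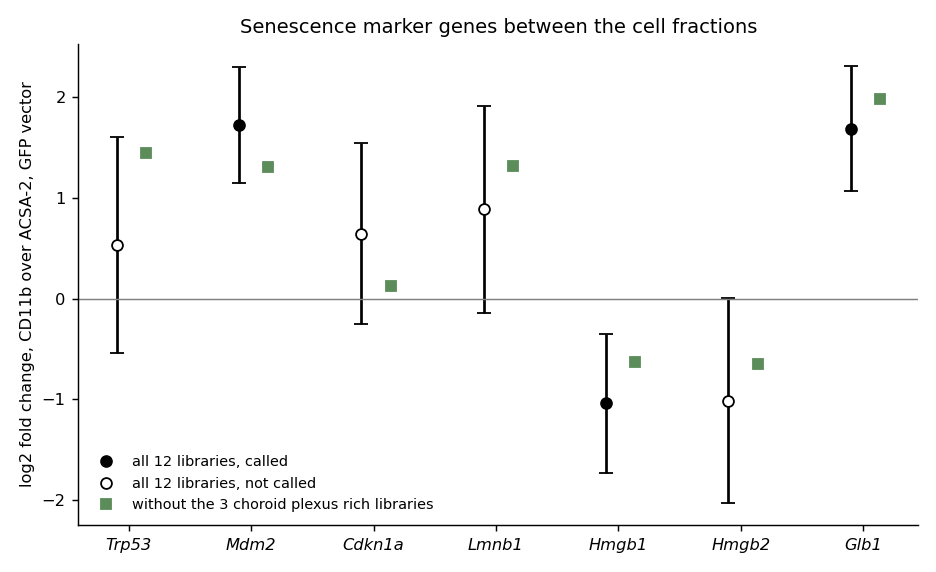
Log2 FC of CD11b over ACSA-2 in GFP libraries (vertical axis) for the 7 tested members, with circles and 95% intervals from the fit of all 12 libraries (filled where called) and green squares for the estimate without the choroid-rich libraries. Mdm2 (1.73) and Glb1 (1.69) lie above 0 and Hmgb1 (-1.04) below it, and the intervals of the other 4 reach across 0.

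Other genes of the same pathways were read from 9 lists. In astrocytes 0 of 27 tested p53 target genes passed edgeR's test in either direction, with a median log2 FC of -0.07 against 0.02 for all genes, and 0 of 5 other CDK inhibitors, 0 of 23 cycling cell genes, 0 of 13 nuclear lamina genes and 0 of 6 other HMG genes passed, against 3.36% of all genes. DESeq2, which called 5.47% of all genes lower and 1.04% higher, called 2 p53 target genes, 2 p53 regulators and 3 glycosidases lower, and otherwise the same numbers per list as edgeR. Among 11 kinases, cyclins and pocket proteins of the G1 phase, 2 fell with AAV-A2A. Cdk6, the G1 kinase that p16INK4a inhibits, went from 46.7 ± 6.18 to 5.0 ± 1.05 CPM (log2 FC -3.20, SE 0.27, edgeR adjusted p = 0.00106), and all 11 alternatives called it. Rbl1, the pocket protein p107, went from 52.0 ± 26.6 to 7.92 ± 3.90 CPM (log2 FC -2.69, SE 0.48, edgeR adjusted p = 0.0146).

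Of 13 p53 regulators 1 fell, the kinase Hipk2, from 63.1 ± 9.09 to 30.2 ± 5.44 CPM (log2 FC -1.03, edgeR adjusted p = 0.0372). Of 18 lysosomal glycosidases and partners of Glb1, 2 fell: Gusb, β-glucuronidase, from 178 ± 29.0 to 69.6 ± 5.57 CPM (log2 FC -1.33, edgeR adjusted p = 0.00499), and Arsa, arylsulfatase A, from 136 ± 22.1 to 66.9 ± 10.2 CPM (log2 FC -1.0, edgeR adjusted p = 0.0242). Of 20 secreted factors 1 rose, Timp1, an inhibitor of matrix metalloproteinases, from 0.234 ± 0.204 to 7.81 ± 3.49 CPM (log2 FC 5.07, edgeR adjusted p = 0.0263). Gusb kept its call in 10 of 11 alternatives and lost it when all 12 libraries shared a fit (adjusted p = 0.436). When 1 library was left out, the remaining 4 often lost their call while the log2 FC stayed at -1.18 to -0.90 for Hipk2, -1.13 to -0.88 for Arsa, 4.46 to 5.59 for Timp1 and -3.13 to -2.29 for Rbl1. Hipk2 lost its call when any 1 of the 6 libraries was left out (adjusted p 0.0560 to 0.323 where lost), and Arsa without GFP-303, GFP-306 or any of the 3 A2A libraries (0.0569 to 0.360). Timp1 lost it without GFP-306, GFP-307 or any of the 3 A2A libraries (0.0655 to 0.139) and Rbl1 without GFP-303, GFP-306, A2A-310 or A2A-313 (0.0548 to 0.0864), and these ranges include the shared fit.

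In microglia none of these lists had a gene past edgeR's adjusted threshold, which no gene of that fraction passed. DESeq2, which called 2.96% of all genes higher and 1.75% lower, called Gadd45a and Fas lower among 27 p53 target genes, Cdkn2b lower among 5 CDK inhibitors and Igfbp7 lower among 25 secreted factors. It called Rb1 higher among 11 G1 genes, Lemd3 higher among 13 lamina genes and Galc and Manba higher among 18 glycosidases, and these names were chosen after their values were seen. It called 0 of 13 p53 regulators, 0 of 24 cycling cell genes and 0 of 6 other HMG genes. In simulated counts of this fraction DESeq2 also called unchanged genes, 78 of 15970, beside 63 of 184 changed by a log2 FC of 2. Fewer genes were set to change there than were called here, so these counts give no share of false calls among the named genes. Median log2 FCs were 0.62 for the p53 regulators, 0.10 for the p53 targets, 0.77 for the lamina, 0.69 for the cycling cell genes, 0.53 for the glycosidases, -0.08 for the G1 genes, -0.47 for the CDK inhibitors, -0.48 for the secreted factors and -0.90 for the HMG genes, against -0.05 for all genes.

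The fraction difference called more genes of these lists, as of all genes (14.4% higher and 12.3% lower). Of 18 glycosidases 8 were higher in CD11b than in ACSA-2 GFP libraries and 0 lower, among them the mannosidase Man2b1 (28.8 against 691 CPM, log2 FC 4.59) and the heparan sulfate enzyme Naglu (log2 FC 2.81). Of 28 p53 target genes 8 were higher and 2 lower, with Btg2, an antiproliferative early response gene, at 74.6 ± 8.0 against 1545 ± 445 CPM (log2 FC 4.37, edgeR adjusted p = 2.44e-05), the stress kinase Plk3 at a log2 FC of 4.30 and the PIDDosome scaffold Pidd1 at 5.56. Of 25 secreted factors 14 were higher and 2 lower, led by the chemokines Ccl4 (log2 FC 7.22) and Ccl3 (5.49) and the cytokine Il1b (5.84). All these named genes passed in every alternative that tested them.

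Of 11 G1 genes Ccnd1, cyclin D1, alone was higher (log2 FC 3.02), and of 24 cycling cell genes Mcm3 of the replicative helicase was higher (2.31) and the ribonucleotide reductase subunit Rrm2 (-2.45) and the spindle factor Tpx2 (-2.20) lower. Of 6 other HMG genes 0 were higher and 3 lower, Hmgn1 (-1.38), Hmgb3 (-2.41) and Hmgn2 (-1.18). The CDK inhibitors moved both ways, with Cdkn1c, p57, higher (3.07) and Cdkn2c, p18, (-2.23) and Cdkn2d, p19Ink4d, (-0.93) lower among 5. Of 13 p53 regulators Usp7 (1.18) and Sirt1 (1.27), a deubiquitinase and a deacetylase of the p53 axis, were higher and the acetyltransferase Kat5 (-1.23) lower, and of 13 lamina genes the lamin B receptor Lbr was higher (1.09) and Banf1, which tethers chromatin to the lamina, lower (-1.19). Without the choroid-rich libraries the calls of Cdkn1c (log2 FC 0.37, adjusted p = 0.660), Cdkn2c (-1.34, 0.0894), Cdkn2d (-0.37, 0.495), Hmgn2 (-1.01, 0.110), Kat5 (-0.74, 0.204), Usp7 (1.1, 0.119), Tpx2 (-2.16, 0.0910) and Banf1 (-1.19, 0.0676) were lost. Leaving out 1 library ended the call of Cdkn2d in 8 fits, of Cdkn1c and Sirt1 in 5, of Lbr in 4, of Tpx2, Kat5 and Usp7 in 3 and of Hmgn2 in 2, with the ACSA-2 library GFP-303 and at least 1 of the CD11b libraries GFP-316, GFP-317 and GFP-319 among those left out in each case. The log2 FC over these leave-one-out fits stayed between 1.05 and 1.48 for Sirt1, 0.87 and 1.47 for Lbr and 2.69 and 3.59 for Cdkn1c, and between -1.29 and -0.70 for Cdkn2d. Where lost, the adjusted p was 0.0523 to 0.0875 for Sirt1 and 0.0563 to 0.0921 for Lbr.

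**Figure D5:**
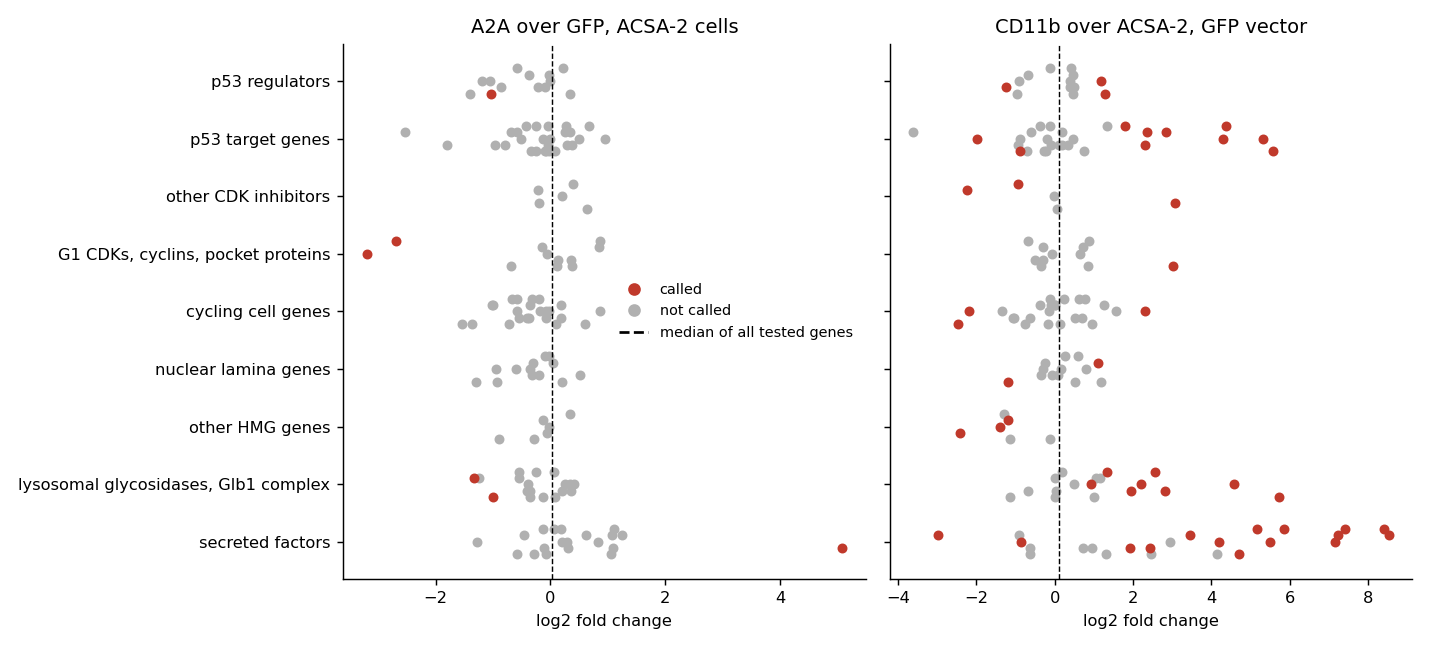
Log2 FC (horizontal axes) of the tested genes of the 9 pathway lists (rows) for AAV-A2A over AAV-GFP in ACSA-2 cells and for CD11b over ACSA-2 with AAV-GFP, in red where called by edgeR and grey otherwise, with a dashed line at the median of all genes tested. In ACSA-2 cells the red points run from Cdk6 (-3.20) to Timp1 (5.07), and Il6, listed at 0 in all 3 ACSA-2 GFP libraries, is left out of the fraction panel.

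Per kilobase of exon, each list's most abundant gene was, in ACSA-2 libraries of both vectors, Igfbp7 among secreted factors at a level of 443 CPM per kb, Hmgn3 at 103, Ctsa, the protective partner of β-galactosidase, at 90.0, Banf1 at 84.3, Bax at 70.3, Cdk4 at 53.9, Cdkn2d at 45.9, Kat5 at 32.8 and Pcna at 9.92 CPM per kb. In CD11b libraries, with the glycosidases left out, it was Btg2 at 687 CPM per kb, Ccl4 at 338, Cdk4 at 36.2, Cdkn1c at 33.4 (no longer called against ACSA-2 cells without the choroid-rich libraries), Lemd2 at 28.4, Hmgn3 at 23.2, Mcm3 at 20.7 and Kat5 at 16.4 CPM per kb. On the same scale Glb1 stood at 13 CPM per kb in ACSA-2 and 41.9 CPM per kb in CD11b GFP libraries.

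After each fraction's mean was taken off, the members did not vary as a block over the 12 libraries. Hmgb1 and Hmgb2 had a Pearson r of 0.83 and Trp53 and Hmgb1 of 0.77, while Trp53 and its target Cdkn1a had -0.21 and Trp53 and Mdm2 -0.38. Within the 6 libraries of a fraction these differed. Hmgb1 and Hmgb2 had 0.88 in ACSA-2 and 0.82 in CD11b libraries, but Trp53 and Hmgb1 had -0.24 and 0.89, Trp53 and Cdkn1a 0.55 and -0.36, and Trp53 and Mdm2 0.23 and -0.58. The genes most like Cdkn1a were Dmkn (r = 0.96), Iqca (0.95) and Enkur (0.95), those most like Trp53 were Cpox (0.97), Bach1 (0.96) and Usp21 (0.96), and those most like Mdm2 were Dcun1d1 (0.91), Fpgt (0.90) and Pcmtd2 (0.88). For Lmnb1 they were Spry1 (0.89), Qk (0.89) and Irf2bp2 (0.88), for Hmgb1 Oser1, Ccdc51 and Eif3j1 (0.94 each), for Hmgb2 Calm2 (0.96), Mdp1 (0.93) and Tuba1a (0.92), and for Glb1 Ftsj3 (0.95), Xkr8 (0.93) and Naa35 (0.92). These r values describe the 12 libraries, of which the 6 CD11b libraries carry the choroid plexus split. Some were lower within ACSA-2 than within CD11b libraries, as for Trp53 with Usp21 (0.31 and 0.98) and Cpox (0.73 and 0.98), and Hmgb2 with Mdp1 (0.70 and 0.996). Others were alike in both, as for Trp53 with Bach1 (0.94 and 0.98).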

How the data were processed

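The authors trimmed 1x50 base reads with cutadapt 1.10, aligned them to mm10 with STAR 2.5.3 and counted unique, unambiguous reads per Ensembl gene with HTSeq 0.6.1p1; the deposited counts are whole numbers, unnormalized, with no molecular identifiers, so floors cover counting error only. Per the study's methods, cDNA came from a full-length low-input kit with tagmentation, which marks no strand. Every deposited sample column was used. The members and lists were chosen with earlier results of these data known.

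Genes passed edgeR's filterByExpr, counts were scaled by TMM, and quasi-likelihood tests (edgeR 4.0.16, limma 3.58.1, R 4.3.3) compared AAV-A2A with AAV-GFP within each fraction. The fraction difference and the interaction used 1 fit of all 12 libraries over the genes found in both tables. Calls were made at 0.05 after Benjamini-Hochberg adjustment, with log2 FC beyond 0.32 in either direction. CPM of single genes were scaled to the TMM-effective library size, marker sums to the library total. The scripts were tested on simulated data, and same-group libraries differed by more than sampling noise.

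Alternatives were DESeq2 1.42.0, RLE size factors, no filter, at least 10 counts in every library, other sets of libraries in the fit, each library left out and, chosen after seeing the data, the choroid plexus split at a marker sum of 1000 CPM. Lists held p53 regulators, p53 target genes, other CDK inhibitors, G1 genes, cycling cell genes, nuclear lamina genes, other HMG genes, glycosidases and secreted factors. Named list genes were up to 3 called genes with the smallest adjusted p and the most abundant gene per kilobase; 1 gene that this rule names is not reported here. Likeness was the Pearson r of log2(CPM + 1) after subtraction of fraction means, among genes with a mean of at least 5 CPM in each fraction. Promoters were RefSeq windows of GRCm38.p6. Plots were drawn with matplotlib 3.10.9.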

Additional observations from a re-analysis of the deposited data

How the results depend on the processing

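No paired analysis was run, because the labels do not say which libraries, if any, came from the same animal. With 3 libraries a group, the intervals above set what could be seen, and the 3 choroid-rich CD11b libraries limit every CD11b value. DESeq2 called 1071 genes for the vector effect in astrocytes, 798 in microglia with 1 member, and 1521 for the interaction. The shared fit of 12 libraries called 156 in astrocytes, and leaving out 1 library gave 272 to 448. For the interaction, RLE size factors gave 10 calls, at least 10 counts in every library 345, and leaving out 1 library 0 to 1286, the most without GFP-319. Without the choroid-rich libraries, an alternative chosen after seeing the data, there were 3 calls in microglia and 0 in the interaction. The mean of both vectors gave 10055 calls for the fraction difference with 5 members, adding Lmnb1 (log2 FC 1.41) and Hmgb2 (-1.15), and leaving out 1 library gave 3379 to 5224 calls with 2 to 3 members. Outside the leave-one-out fits, 345 values of single genes kept their side, 19 lost and 5 gained a call, and 7 changed sign, as follows. Hmgb1 in microglia was -0.0113 with DESeq2, -0.0111 with RLE size factors, -0.0673 with at least 10 counts, -0.23 with the choroid term and -0.12 without the choroid-rich libraries, where Trp53 was -0.14, and Lmnb1 was -0.00705 with the choroid term. When 1 library was left out, these values changed sign within their range: in microglia Hmgb1 (-0.24 to 0.23), Trp53 (-0.0723 to 1.19), Mdm2 (-0.10 to 0.28) and Lmnb1 (-0.0174 to 0.57), in astrocytes Mdm2 (-0.24 to 0.0531) and Glb1 (-0.11 to 0.34), in the fraction difference Trp53 (-0.27 to 0.83), and in the interaction Hmgb1 (-0.0927 to 0.44) and Hmgb2 (-0.74 to 0.0770). None of these sign changes concerned a called value, and their cause was not tested.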
